A study of Mus musculus with 10 samples.

Results

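The extracellular matrix of the mouse testis was followed through the genes of collagens, laminins, fibrillins, fibulins and lectican proteoglycans, of the integrin subunits that bind matrix, and of the matrix metalloproteinases (MMPs), ADAMTS proteases and tissue inhibitors of metalloproteinases (TIMPs) that cut it or restrain its cutting. Members were taken by gene symbol, and 92 of 8841 genes on the array matched, with 93 of 10012 probes. Of these probes 91, for 90 genes, had values, those for Mmp2 and Itgb7 had none, and 53 probes for 53 genes were bright enough to be compared. The samples were testis RNA of male BALB/c mice, 9 weeks old, given 1 subcutaneous injection. The control group received the carrier of dimethylsulfoxide and PBS and was killed at 10 h, and 4 groups received 60 µg per mouse of trichostatin A (TSA), an inhibitor of histone deacetylases, and were killed at 2.5, 5, 7.5 or 10 h. Each group had 3 mice whose RNA was pooled before labelling, so the 15 mice gave 5 pools (n = 1 pool per group). Each pool was read on 2 CodeLink arrays, which are technical duplicates, so differences between animals were not measured. Precision is limited by having 1 pool per group, with 1 control pool, on 10 arrays in all. The control matched the 10 h pool alone in time of killing.

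Collagens are chains that fold into triple helices. Fibrillar collagens build cables, collagen IV builds the sheet of basement membranes together with laminins, and other classes coat fibrils or span cell membranes. In the testis a basement membrane and layers of interstitial collagen surround each seminiferous tubule, and the peritubular myoid and Sertoli cells that lie against the basement membrane deposit it together. Integrins are heterodimers of an alpha and a beta subunit that tie this matrix to the cytoskeleton. MMPs cleave matrix proteins, TIMPs block them, and in rodent testis both have been linked to the opening and closing of junctions between Sertoli cells as germ cells pass.

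The deposited values were normalised intensities with a median of 1.00 on every array. Duplicate arrays correlated with r between 0.9946 and 0.9982 across the compared probes, and the standard deviation of 1 array on the log2 scale was lowest in the 5 h pool (0.0934) and highest in the 7.5 h pool (0.163). Of 15 germ cell markers 15 were above the brightness limit, and their summed intensity, carried by a few very bright probes, lay between 1135 and 1177 in the 5 pools. Their median log2 folds were -0.0434, -0.316, -0.0615 and -0.239 at 2.5, 5, 7.5 and 10 h, against member medians of 0.215, 0.121, 0.11 and 0.264, and Tex101 was the 1 marker past 2-fold (-1.20 at 10 h) and fell in the slope (limma adjusted p = 0.0387). The part of these markers in the members' values was not tested. The 5 h pool differed from the others in liver transcripts, of which 16 of 17 compared were at least 2-fold higher than in control testis, against 1.21% of all probes. Some of these, such as Ttr, reached the brightness limit set below only through the 5 h pool, so the count overstates the share. Over all 23 liver genes on the array, dim ones included, the summed intensity was 27.2 in the control and 33.4, 244, 25.9 and 30.5 by time. The limma counts and calls of members, which rest on all pools, are given without the 5 h pool too. Other results that rest on all pools include the 5 h pool and are not given without it. In whole testis, fewer cells of a type and less RNA per cell cannot be told apart.

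Brightness first separated the families. Probes whose mean intensity fell below 0.2068, the lowest 25% of the array, were not compared, and this removed 38 of the 91 members. Collagens were mostly kept (24 of 28), as were laminins (6 of 8), fibrillins and fibulins (5 of 5) and TIMPs (4 of 4). Integrin subunits (6 of 20), MMPs (2 of 14), ADAMTS proteases and ADAMTS-like proteins (2 of 6) and lecticans (1 of 3) were mostly left out, and 3 further genes caught by the symbol pattern are not subunits and passed (3 of 3). The probes left out stood between 0.0364, the floor set on low values, and 0.24 in every pool, so no fold change is given for them. They include Itga2b, Itga6, Itgam, Itgb2 and Itgb3, the gelatinase gene Mmp9, the laminin chain gene Lamb1 and the lectican genes Bcan and Vcan. A dim probe does not show that a transcript was lacking, and levels of different probes are not set against each other.

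At each time a member was counted as changed in size when its log2 fold, TSA pool over control pool, was at least 1 either way and both TSA arrays lay beyond both control arrays. This rule has no p-value, and the standard errors given with folds come from duplicate arrays alone. At 2.5 h, 3 of 53 members were higher (5.66%), against 0.674% of all 7422 compared probes, and none was lower, against 0.243%. At 5 h, 1 member was higher (1.89%, against 1.21% of all probes) and none lower (0.337%). At 7.5 h, 2 were higher (3.77%, against 1.01%) and none lower (0.903%), and at 10 h, 5 were higher (9.43%, against 1.23%) and none lower (1.44%). The members behind these counts were Col16a1 at all 4 times, Col6a3 and Lamb2 at 2.5 and 10 h, Ncan at 7.5 and 10 h, and Col9a2 at 10 h. Without array 1 of each pool the 5 h count was 2 in place of 1, the added gene being Fbn2, which was lower. With each array centred within bins of probe ID number, Lamb2 missed the rule at both its times and Col9a2 and Ncan missed it at 10 h, while Col11a1 (higher) and Fbn2 (lower) met it at 10 h.

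The median log2 fold of the members was 0.215 at 2.5 h, 0.121 at 5 h, 0.11 at 7.5 h and 0.264 at 10 h, against -0.0158, -0.0286, -0.00813 and 0.00717 for all compared probes. Endothelial markers, of which 7 of 9 were compared, had medians of 0.164, 0.142, 0.125 and 0.393 and a summed intensity of 4.79 in the control pool and 5.57, 5.57, 5.61 and 6.15 by time. None of them passed limma (1 higher at an unadjusted p under 0.05), Cdh5 and Pecam1 were below the brightness limit in every pool, and their part was not tested. Folds above 0 were found for 40 of 53 members at 2.5 h (75.5%, against 47.8% of all probes), 31 at 5 h (58.5%, against 46.5%), 28 at 7.5 h (52.8%, against 49%) and 43 at 10 h (81.1%, against 51%). All 4 comparisons share the control arrays. Both arrays of every TSA pool lay above both control arrays for 22 of 53 members (41.5%, against 22.2% of all probes), and below them for 2 (3.77%, against 23%), the collagen gene Col19a1 and the fibulin gene Fbln7. This count over all 4 times was added after the values were seen.

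**Figure D1:**
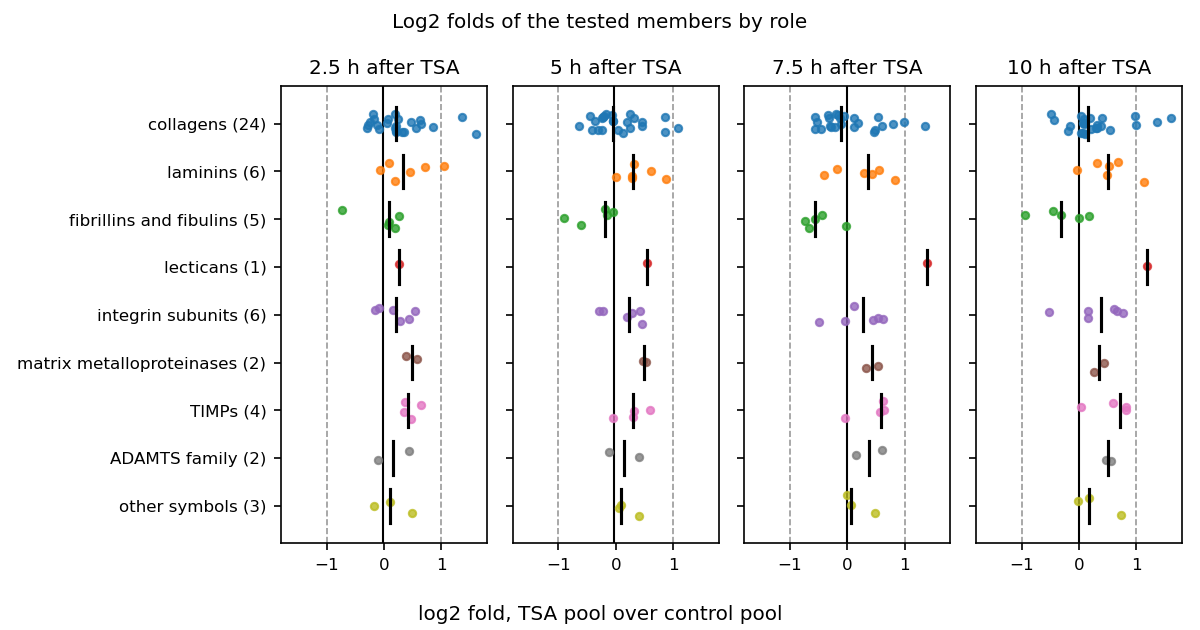
Log2 folds of the 53 compared members at each time (x axis, TSA pool over control pool), by role (rows, with the number of members). Each point is 1 member, short black bars are role medians, the long black line is the median of all 7422 probes, and dashed lines mark 2-fold. Collagens spread to both sides, while laminins, TIMPs and the MMPs Mmp11 and Mmp14 lie mostly to the right.

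Across the pools, limma was fitted to the 5 pool means with Benjamini-Hochberg adjustment over all 7422 probes. The lone control pool was taken to vary like the TSA pools, and p-values measure the spread among pools. In the TSA pools against the control pool, 4 of 53 members rose (7.55%, against 2.74% of all probes) and none fell (0.795% of all probes). These were Col16a1, Col9a2, Lamb2 and Timp2. At an unadjusted p under 0.05 the same fit held 19 members higher and 2 lower, together 39.6% of members, against 28.3% of all probes. In the slope over hours, with the control at 0 h, 1 member rose, Ncan (1.89%, against 0.35%), and none fell (1.66%). The unadjusted counts for the slope were 16 members rising and 5 falling, 39.6% of members against 25.1% of all probes.

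The adjusted p-values lay close to the limit and depended on single pools and arrays. Without any 1 of the TSA pools, no member passed in the TSA pools against the control pool. Of all probes, 0.0404 to 0.0674% passed in these fits, against 3.53% with all pools. Without array 2 of the 2.5 h pool, array 1 of the 7.5 h pool or array 1 of the 10 h pool, again 0 passed. The shares of all probes were 0.0674, 0.0808 and 0.0943%. The count was 2 without array 1 of the 2.5 h pool (0.687% of all probes) and 1 without array 2 of the 7.5 h pool (0.404%). It was 7 without array 1 of the control pool (4.12%) and 8 without array 2 of the control pool (6.67%). The call for the slope of Ncan was lost without any 1 of the 5 pools. It was lost too without array 1 of the control, either array of the 7.5 h pool or array 1 of the 10 h pool. In those fits 0 to 1.86% of all probes passed for the slope, against 2.01% with all arrays. With array 1 of all pools left out 2 members passed for the TSA pools and 0 for the slope, and with array 2 of all pools left out 0 passed in either. Ncan was joined by Timp1 without array 2 of the 10 h pool. After each array was centred within bins of probe ID number, Col16a1 alone passed (0.175% of all probes for the TSA pools). With no brightness limit 0 passed (0.0101%). The direction of all 5 genes was the same in each of these fits.

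The highest fold of any member belonged to a collagen at 2.5 and 10 h (Col6a3) and at 5 h (Col16a1), and to the lectican Ncan at 7.5 h. Col16a1 (probe 9122, chromosome 4) encodes the chain of collagen XVI, which sits on fibrils and microfibrils at their edges. Its intensity on the array pair of each pool was 1.46 and 1.62 in the control, 3.72 and 4.15 at 2.5 h, 3.17 and 3.33 at 5 h, 3.87 and 4.02 at 7.5 h, and 4.14 and 3.75 at 10 h. All 8 TSA arrays lay above both control arrays, and the 5 h pool was the lowest of the TSA pools. The log2 folds were 1.36 ± 0.11, 1.08 ± 0.083, 1.36 ± 0.08 and 1.36 ± 0.10 at 2.5, 5, 7.5 and 10 h, which is 2.56-, 2.12-, 2.57- and 2.57-fold. Over the TSA pools Col16a1 rose by 1.29 ± 0.15 in log2 units (adjusted p = 0.04 in limma).

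Col9a2 (probe 6146, chromosome 4) encodes a chain of collagen IX, which decorates the fibrils of cartilage. It measured 0.57 and 0.518 on the control arrays, 0.946 and 1.02 at 2.5 h, 0.987 and 0.977 at 5 h, 1.16 and 1.01 at 7.5 h, and 1.1 and 1.07 at 10 h. The TSA arrays were all above the control arrays and overlapped among themselves. Its mean log2 fold over the TSA pools was 0.93 ± 0.12 (limma adjusted p = 0.04), with 0.85 at 2.5 and 5 h and 1.00 at 7.5 and 10 h. The partner chain Col9a1 did not pass the test and had the other sign, with log2 folds of -0.31, -0.64, -0.57 and -0.19. Of 9 cartilage and bone markers on the array, Col2a1, Col9a1 and Col11a1 among them, 7 were compared and none met the size rule or passed the limma test. Their median log2 folds were 0.0484, 0.0224, 0.185 and 0.217 by time. Their summed intensity was 18.9 in the control pool and 15.9, 16.8, 15.5 and 17.2 by time, most of it Comp, and 2.31 in the control and 2.54, 2.34, 2.48 and 3.23 by time without Comp. Acan, which encodes the main proteoglycan of cartilage, was below the brightness limit in every pool.

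Col6a3 (probe 5528, chromosome 1) encodes the long chain of collagen VI, which forms beaded filaments around cells. It read 0.715 and 0.78 in the control, 2.14 and 2.43 at 2.5 h, 1.37 and 1.35 at 5 h, 1.36 and 1.24 at 7.5 h, and 2.28 and 2.26 at 10 h. Every TSA array was above the control, and the 2.5 and 10 h arrays stood apart from those between them. The folds were 3.05 at 2.5 h and 3.04 at 10 h, against 1.82 at 5 h and 1.74 at 7.5 h, and the log2 folds were 1.61 ± 0.11, 0.86 ± 0.063, 0.80 ± 0.091 and 1.60 ± 0.063 in order of time. With that spread among TSA pools the gene did not pass in limma (adjusted p = 0.09 for the TSA pools and 0.312 for the slope). Col6a1, the chain that Col6a3 joins in collagen VI, lay near or below the control at the later times, with log2 folds of 0.55, -0.23, -0.45 and 0.09.

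**Figure D2:**
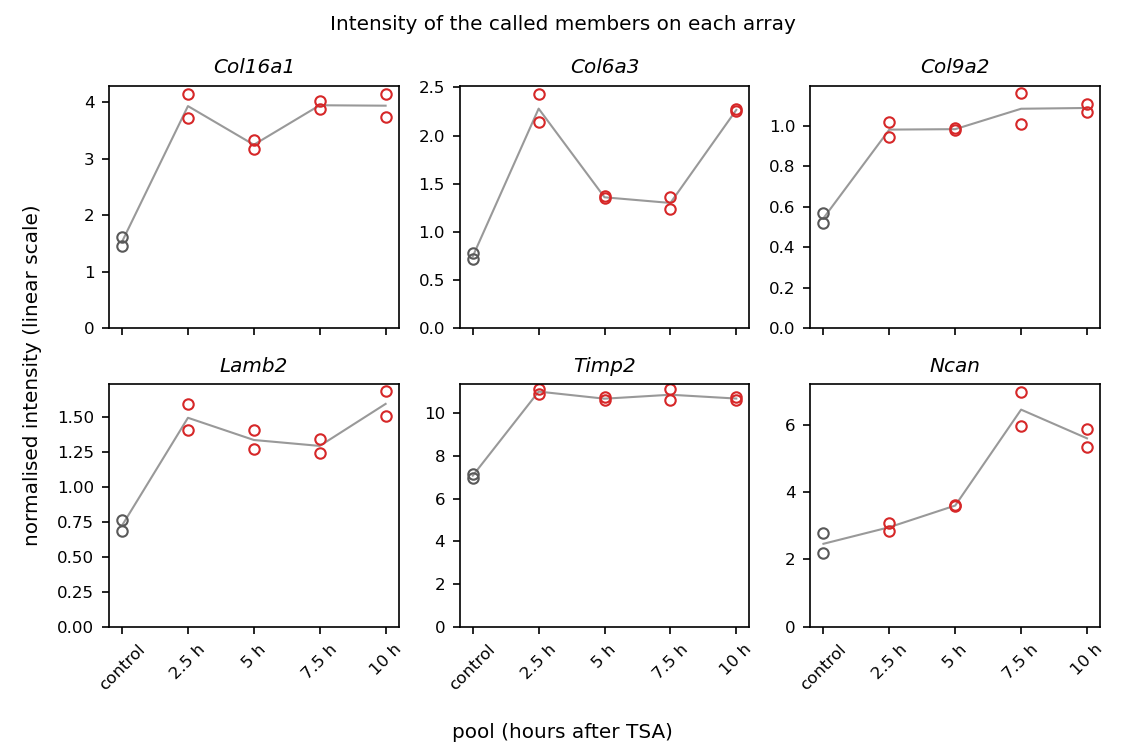
Normalised intensity (y axis, linear scale from 0, own scale per gene) of the 6 members that met the size rule or passed a limma test, on each array of the 5 pools (x axis). Open circles are single arrays, grey for the control and red for TSA, and the line joins pool means. All TSA arrays lie above both control arrays in each of the 6 genes, and Ncan alone climbs mainly between 5 and 7.5 h.

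The other 21 collagens that were compared neither met the size rule nor passed limma, and they spread to both sides of 0. Among fibrillar collagens, Col11a1, a chain of collagen XI that sits in the core of collagen II and V fibrils, had intensities of 0.571 in the control and 0.708, 0.675, 0.795 and 1.12 at 2.5, 5, 7.5 and 10 h. Its log2 fold reached 0.97 ± 0.066 at 10 h and its slope had a limma adjusted p of 0.0662. Col5a3, a chain of collagen V, had folds between 0.24 and 0.53, and Col5a1 between -0.04 and 0.30. Col2a1, the collagen of cartilage, had overlapping TSA and control arrays at all 4 times.

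Among basement membrane collagens, Col4a1 and Col4a2 encode the chains found in nearly all basement membranes and are transcribed from a shared promoter in opposite directions. Col4a2 had pool intensities of 0.874 in the control and 0.805, 0.703, 0.609 and 0.65 at 2.5, 5, 7.5 and 10 h. Its log2 folds were -0.12 ± 0.10, -0.31 ± 0.11, -0.52 ± 0.12 and -0.43 ± 0.10, and it did not pass in limma (adjusted p = 0.222 for the TSA pools and 0.11 for the slope). Col4a1 gave 0.05, -0.06, -0.34 and 0.21 with errors near 0.26, since its duplicate arrays lay apart. The tissue-restricted chain genes Col4a3, Col4a4 and Col4a6 stayed between -0.46 and 0.32. Col4a4 was below the brightness limit at 7.5 h (0.184).

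Col15a1 and Col18a1 encode the multiplexins, which link basement membranes to the stroma. Col15a1 had log2 folds of -0.08, -0.20, -0.13 and 0.07, and Col18a1 of 0.20, 0.45, -0.16 and 0.20. Col17a1 and Col23a1 encode collagens that span the cell membrane. Col17a1, a part of hemidesmosomes in skin, had 0.47 ± 0.17, 0.45 ± 0.11, 0.60 ± 0.097 and 0.55 ± 0.15 (limma adjusted p = 0.0602 for the TSA pools). Col23a1 had folds between -0.24 and 0.04. Col19a1, a fibril-associated collagen, was below the control on every array, with folds between -0.49 and -0.29 and a limma adjusted p of 0.126.

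A group of members, mostly genes of the interstitial matrix, read higher in the 2.5 and 10 h pools than in the 5 and 7.5 h pools. This pattern was picked after the values were seen, so it carries no test. Both arrays at 2.5 h and both at 10 h exceeded all arrays at 5 and 7.5 h for 8 of 53 members (15.1%, against 2.72% of all probes), and the opposite order was found for 0 members (1.48% of all probes). The 8 were Col1a1, Col1a2, Col5a2, Col6a1, Col6a3, Fbln2, Fbln5 and Timp3. Fbln2 was below the brightness limit of 0.2068 at 5 h (0.203) and 7.5 h (0.147). Timp3, a protease inhibitor gene, read 2.07 at 10 h, only slightly above its 1.96 at 5 and 7.5 h. Col1a1 and Col1a2 encode collagen I, the bulk collagen of connective tissue. Col1a1 read 0.342 in the control, 0.534 at 2.5 h, 0.291 at 5 h, 0.293 at 7.5 h and 0.36 at 10 h. Col1a2 read 0.805, 0.927, 0.607, 0.661 and 0.868 in the same order. Relative to the control both were higher at 2.5 h and lower at 5 and 7.5 h. Col5a2 had log2 folds of 0.62 ± 0.27, -0.05 ± 0.07, -0.56 ± 0.38 and 0.39 ± 0.031.

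The fibroblast, peritubular and Leydig marker lists were set beside this group. Of 10 fibroblast markers on the array 9 were compared, none met the size rule or passed limma (1 higher and 1 lower at an unadjusted p under 0.05 for the TSA pools), and their log2 folds had medians of 0.375, 0.0591, -0.0857 and 0.306 in order of time, and their summed intensity was 11.7 in the control pool and 14.0, 11.9, 12.0 and 13.8 in the TSA pools by time. The list contains Col1a1 and Col1a2 themselves. Dcn (0.41, 0.17, 0.01 and 0.31), Pdgfra (0.46, 0.19, 0.31 and 0.37) and Dpt (0.45, 0.18, -0.09 and 0.69) had higher folds at 2.5 and 10 h than between. Dpt was below the brightness limit in the control and at 7.5 h. Fap (0.37, 0.06, 0.40 and 0.45) was low at 5 h alone. Lum (-0.66, -0.62, -0.37 and -0.46) and Postn (-0.46, -0.28, -0.19 and -0.21) had folds below 0 at all times. S100a4 had its highest fold at 10 h (0.74), and Thy1 was below the brightness limit in every pool. The 7 of 7 peritubular and smooth muscle markers had medians of 0.0627, -0.28, -0.232 and 0.0527, and their summed intensity was 58.6 in the control and 59.7, 59.8, 56.3 and 60.8 in the TSA pools by time. The 7 Leydig markers on the array were all compared, and none met the size rule or passed limma. They had medians of 0.274, 0.0475, -0.321 and 0.19 by time, and a summed intensity of 129 in the control and 153, 138, 125 and 145 by time. The part of these cell types in the members' values was not tested.

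**Figure D3:**
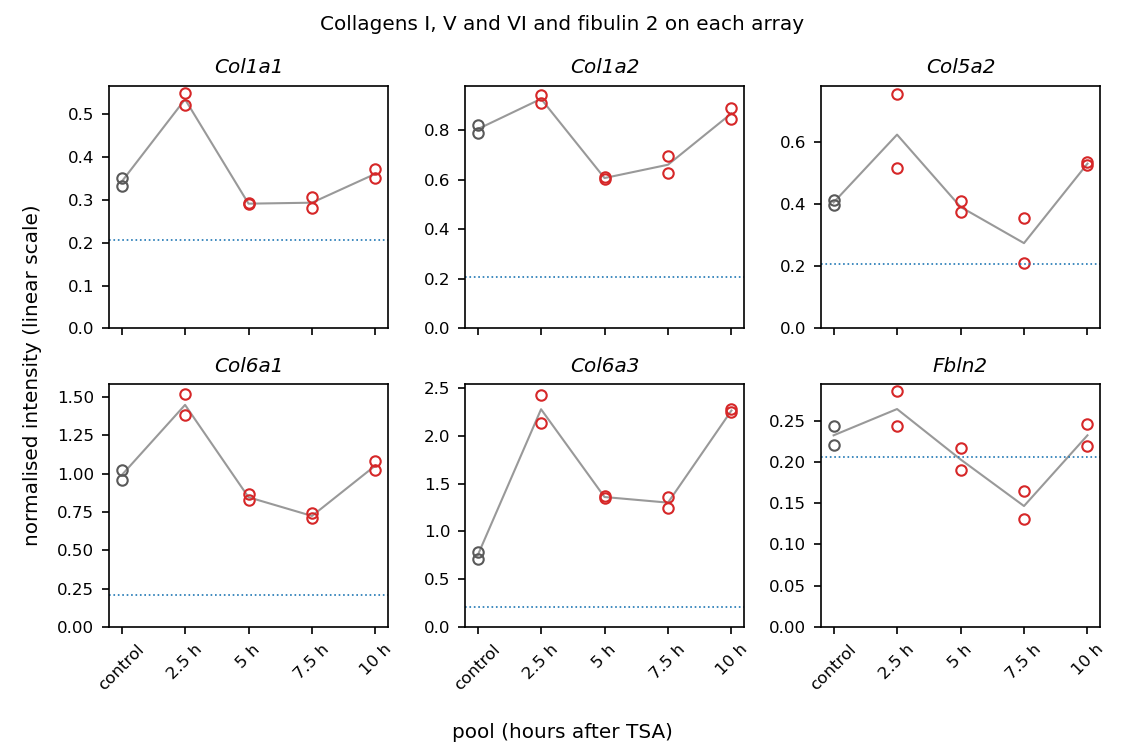
Normalised intensity (y axis, linear scale from 0, own scale per gene) of Col1a1, Col1a2, Col5a2, Col6a1, Col6a3 and Fbln2 on each array of the 5 pools (x axis). Open circles are single arrays, grey for the control and red for TSA, the line joins pool means and the dotted blue line is the brightness limit of 0.2068. In each gene the 2.5 and 10 h arrays lie above the 5 and 7.5 h arrays.

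Laminins are cross-shaped trimers of an alpha, a beta and a gamma chain. Lamb2 (probe 243, chromosome 9) encodes the beta 2 chain of mature basement membranes and synapses. Its intensities were 0.763 and 0.688 in the control, 1.59 and 1.4 at 2.5 h, 1.41 and 1.27 at 5 h, 1.25 and 1.34 at 7.5 h, and 1.51 and 1.68 at 10 h. The TSA arrays overlapped among themselves and all lay above the control. The folds were 2.06, 1.84, 1.78 and 2.2 by time, and over the TSA pools Lamb2 rose by 0.97 ± 0.15 in log2 units (adjusted p = 0.0449 in limma).

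Of the other 5 laminin genes compared, none passed. Lamc1, the common gamma chain, had log2 folds of 0.72 ± 0.17, 0.62 ± 0.16, 0.43 ± 0.17 and 0.52 ± 0.20 (limma adjusted p = 0.0702). Lama3 and Lamb3, whose products pair in the laminin of epithelial anchoring and, in rat testis, at the junctions between Sertoli cells and spermatids, were above the control on every TSA array. Lama3 had folds of 0.46, 0.32, 0.55 and 0.68 (limma adjusted p = 0.103), and Lamb3 of 0.19, 0.28, 0.29 and 0.49 (0.201). Lama2, the muscle and peritubular alpha chain, stayed between -0.18 and 0.01. Lama1 was 0.31 ± 0.10 at 10 h and -0.41 ± 0.13 at 7.5 h.

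Fibrillins form the microfibrils that carry elastin, and fibulins bridge them to other matrix. Fbn2 had pool intensities of 0.96 in the control and 1.00, 0.516, 0.574 and 0.499 at 2.5, 5, 7.5 and 10 h. Its log2 folds were 0.06 ± 0.10, -0.89 ± 0.10, -0.74 ± 0.10 and -0.94 ± 0.15, the lowest of the 53 members at the last 3 times. The arrays at 2.5 h overlapped the control and those of the later pools lay below it. It missed the 2-fold size rule, and its slope did not pass in limma (adjusted p = 0.0859). Fbln7 was below the control throughout, from -0.73 ± 0.35 at 2.5 h to -0.44 ± 0.34 at 10 h (limma adjusted p = 0.0629). Fbln1 gave 0.09, -0.05, -0.43 and -0.32, and Fbln5, needed for elastic fibres, 0.26, -0.15, -0.03 and 0.17.

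Ncan (probe 5537, chromosome 8) encodes neurocan, a chondroitin sulphate proteoglycan known from the matrix of the brain. It measured 2.18 and 2.79 in the control, 2.84 and 3.08 at 2.5 h, 3.58 and 3.62 at 5 h, 6.96 and 5.98 at 7.5 h, and 5.88 and 5.32 at 10 h. The 2.5 h arrays stood just above the control, and the 7.5 and 10 h arrays were clear of all earlier ones. The folds were 1.2, 1.46, 2.62 and 2.27 by time, and on the log2 scale the errors of the 4 folds were 0.19, 0.18, 0.21 and 0.19. Its slope was 0.14 ± 0.024 log2 units per hour (limma adjusted p = 0.0437), while the mean of the TSA pools against the control did not pass (adjusted p = 0.226). Of 12 neuron and glia markers on the array, a list that includes Ncan, 7 were compared, and the median log2 folds were 0.408, 0.537, 0.566 and 0.639 by time. Gfap, an astrocyte gene of that list, rose in the TSA pools (log2 folds of 0.69, 0.65, 0.83 and 0.84, limma adjusted p = 0.0474). The Gfap call lay close to the limit and was not followed with pools, arrays or settings changed. At an unadjusted p under 0.05, 5 of the 7 were higher, against 1089 of all 7422 probes. Mag, at 4.72 in the control, had log2 folds of 0.04, -0.10, 0.0013 and 0.02. The list's summed intensity, Ncan included, was 9.67 in the control and 11.3, 11.3, 14.8 and 14.1 in the TSA pools. Ncan itself made up 2.47 of this in the control and 2.96, 3.6, 6.45 and 5.6 by time, so the sum is not independent of it. Nefm, Stmn2 and Bcan were below the brightness limit in every pool, and the part of nerve tissue in the Ncan values was not tested.

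Integrins were the family with most dim probes. Of the 6 subunits compared, none met the size rule or passed limma. Itgb1, the beta subunit that pairs with the most alpha subunits, had folds between 0.11 and 0.19 with errors near 0.30, and its TSA and control arrays overlapped at all times. Itgb6, the beta subunit of epithelia that activates latent TGF-beta, had pool intensities of 1.56 in the control and 2.27, 2.1, 2.41 and 2.39 at 2.5, 5, 7.5 and 10 h. Its log2 folds were 0.54 ± 0.21, 0.42 ± 0.20, 0.63 ± 0.23 and 0.61 ± 0.21 (limma adjusted p = 0.0607). Itgb5, a vitronectin receptor subunit, lay lower at the later times, with -0.09, -0.28, -0.49 and -0.52 and a slope that did not pass (adjusted p = 0.0734 in limma).

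Leukocyte integrins differed among themselves. Itgal, the alpha L subunit of lymphocytes, had log2 folds of 0.44, 0.46, 0.54 and 0.76 (limma adjusted p = 0.0837 for the TSA pools and 0.0792 for the slope), while Itgax, a marker of dendritic cells, had -0.15, -0.22, -0.03 and 0.16. Itgb2l, a gene close in sequence to Itgb2, has a pair of probes, of which 1 was compared and had 0.28, 0.28, 0.44 and 0.67. Of 16 macrophage and leukocyte markers on the array 7 were compared, with median log2 folds of -0.152, -0.216, -0.0346 and 0.158. Ptprc, Adgre1, Itgam and Cd3e were below the brightness limit in every pool. The summed intensity of all 16 was 7.68 in the control and 8.01, 7.66, 10.2 and 9.03 in the TSA pools by time. S100a8, which was not compared, read 0.0985 in the control and 1.94 at 7.5 h, and without it the sum was 7.58 in the control and 7.92, 7.5, 8.24 and 8.98 by time. The part of leukocytes was not tested.

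Among proteases, Mmp14 and Mmp11 were the MMPs bright enough to be compared. Mmp14 encodes the membrane-bound MMP that activates the product of Mmp2. It read 3.15 in the control and 4.09, 4.39, 3.96 and 3.78 at 2.5, 5, 7.5 and 10 h, above the control on every TSA array. Its log2 folds were 0.38 ± 0.04, 0.48 ± 0.036, 0.33 ± 0.04 and 0.26 ± 0.044, and it did not pass in limma (adjusted p = 0.123). Mmp11, or stromelysin 3, had folds of 0.58 ± 0.11, 0.52 ± 0.13, 0.54 ± 0.17 and 0.44 ± 0.17 (limma adjusted p = 0.0556). Adamts5, an aggrecan-cleaving protease, had folds between 0.15 and 0.47 with errors of at least 0.328. Adamtsl2, a protease-like protein of microfibrils, had -0.11, -0.12, 0.61 and 0.56.

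All 4 TIMP genes were compared. Timp2 (probe 6052, chromosome 11) encodes the inhibitor that also docks pro-MMP2 to the product of Mmp14. It gave 6.98 and 7.18 on the control arrays, 10.9 and 11.1 at 2.5 h, 10.6 and 10.8 at 5 h, 11.2 and 10.6 at 7.5 h, and 10.6 and 10.8 at 10 h. The TSA arrays lay within a narrow band and all above the control. The folds were 1.56, 1.51, 1.54 and 1.51 by time, below the 2-fold size rule, and over the TSA pools Timp2 rose by 0.61 ± 0.10 in log2 units (adjusted p = 0.0474 in limma).

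Timp1, which is induced by cytokines in many cells, had log2 folds of 0.34 ± 0.037, 0.30 ± 0.054, 0.65 ± 0.074 and 0.83 ± 0.032, and its slope did not pass in limma (adjusted p = 0.0524). Timp4 had 0.48, 0.32, 0.57 and 0.83, but its control intensity of 0.167 was below the brightness limit. Timp3, which binds to the matrix itself, read 2.01 in the control, 2.58 at 2.5 h, 1.96 at 5 and 7.5 h, and 2.07 at 10 h, so the 2.5 h pool alone stood well apart.

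The 3 genes caught by symbol encode partners of integrin tails. Itgb1bp1 stayed between -0.17 and 0.05. Itgb3bp, whose product is also a centromere protein, stayed between 0.06 and 0.18. Itgb1bp2, which encodes the muscle chaperone melusin, had log2 folds of 0.48 ± 0.29, 0.40 ± 0.27, 0.49 ± 0.27 and 0.73 ± 0.30 (limma adjusted p = 0.0865).

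**Figure D4:**
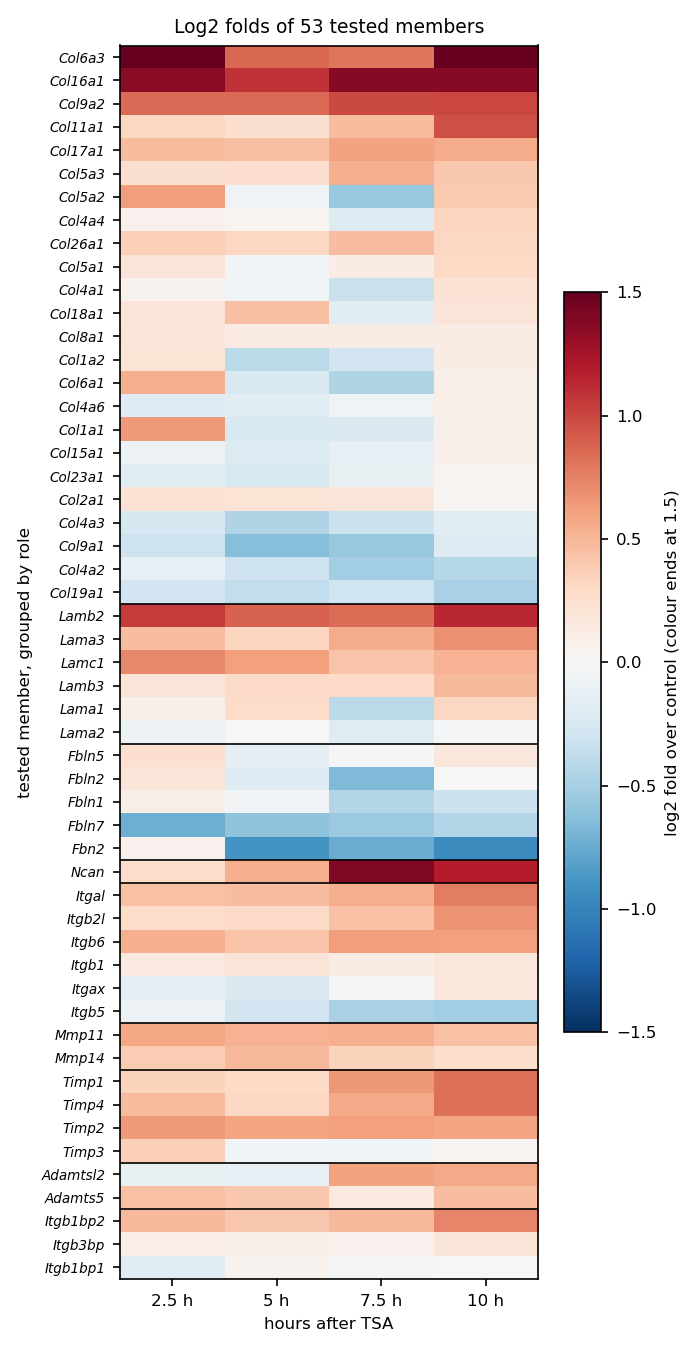
Log2 folds over the control pool (colour, red higher and blue lower, ending at 1.5 either way) of the 53 compared members (rows, grouped by role and sorted by the 10 h fold) at 2.5, 5, 7.5 and 10 h (columns). Col16a1 and Lamb2 are red throughout, Col6a3 is darkest at 2.5 and 10 h, and Fbn2 turns blue from 5 h.

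The promoter sequences of the 5 members that passed a limma test are shown so that the start regions of members that rose can be set side by side. They are the 250 bases before the transcript start that RefSeq gives on build GRCm38.p6, written 5′ to 3′ on the strand of the gene. That reference comes from another mouse strain than BALB/c. Capitals mark each match to the GC box GGGCGG on either strand (CCGCCC on the other), the core of sites bound by Sp1-type factors.
Col16a1, chr4:130047590-130047839, plus strand: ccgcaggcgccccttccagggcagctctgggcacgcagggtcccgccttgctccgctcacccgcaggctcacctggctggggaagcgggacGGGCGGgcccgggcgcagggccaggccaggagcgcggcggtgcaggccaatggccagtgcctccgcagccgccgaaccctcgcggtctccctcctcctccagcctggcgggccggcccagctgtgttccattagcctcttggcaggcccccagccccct
Col9a2, chr4:121039316-121039565, plus strand: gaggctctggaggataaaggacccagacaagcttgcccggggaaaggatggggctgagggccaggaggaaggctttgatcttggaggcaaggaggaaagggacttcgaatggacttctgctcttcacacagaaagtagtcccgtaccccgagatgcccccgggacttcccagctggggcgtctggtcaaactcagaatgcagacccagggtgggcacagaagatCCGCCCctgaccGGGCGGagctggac
Lamb2, chr9:108479612-108479861, plus strand: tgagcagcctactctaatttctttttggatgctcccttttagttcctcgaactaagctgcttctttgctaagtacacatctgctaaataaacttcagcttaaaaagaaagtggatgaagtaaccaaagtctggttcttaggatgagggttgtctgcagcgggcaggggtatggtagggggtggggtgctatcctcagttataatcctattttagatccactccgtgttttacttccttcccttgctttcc
Timp2, chr11:118355412-118355661, minus strand: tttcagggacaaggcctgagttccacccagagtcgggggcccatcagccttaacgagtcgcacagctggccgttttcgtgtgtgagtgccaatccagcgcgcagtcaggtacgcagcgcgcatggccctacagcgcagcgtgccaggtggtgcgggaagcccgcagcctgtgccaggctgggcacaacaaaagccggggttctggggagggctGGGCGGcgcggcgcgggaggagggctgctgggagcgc
Ncan, chr8:70120845-70121094, minus strand: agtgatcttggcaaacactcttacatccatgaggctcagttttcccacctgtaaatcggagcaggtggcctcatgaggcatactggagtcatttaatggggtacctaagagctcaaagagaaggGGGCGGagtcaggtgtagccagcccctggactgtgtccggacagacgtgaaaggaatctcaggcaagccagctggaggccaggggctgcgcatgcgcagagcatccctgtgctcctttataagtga
The windows differed among themselves. The GC box occurred 2 times for Col9a2, 1 time each for Col16a1, Timp2 and Ncan, and 0 times for Lamb2. Col16a1 and Timp2 had windows of 75.6% and 68.0% G and C with 21 CpG dinucleotides each, against 43.6% and 3 CpG dinucleotides for Lamb2. The letters TATAA stood 9 bases before the start of Ncan and 52 before that of Lamb2. A window was found for 65 of the 90 member genes with values, and 34 of those held the GC box (52.3%). Over all 27025 RefSeq genes with a window, on the array or not, the share was 32.9%. Shares for the array genes alone were not computed. Among the compared members the count was 22 of 41 (53.7%). Members' windows had a median of 58.8% G and C, against 52.0% for all genes. The letters CCAAT on either strand were found in 30.8% of members' windows, against 34.5% of all, and TATAA on either strand in 26.2%, against 23.5%. These are matches of letters, not sites shown to be used.

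Genes that make or turn over the same matrix, or are related to its genes by function or family, were followed as lists. The lists were drawn up with earlier results of these data known. Of 15 genes compared on the collagen processing list, 2 rose in limma and 0 fell, against 2.74% and 0.795% of all probes. The 15 include Pdgfra, a receptor gene that is on the fibroblast list too. The list's median log2 folds were 0.256, 0.19, 0.279 and 0.388 by time, against -0.0158, -0.0286, -0.00813 and 0.00717 for all compared probes. P3h1, a prolyl hydroxylase of collagen, had log2 folds of 0.68, 0.71, 0.84 and 0.76 (limma adjusted p = 0.046), and Ppib, the cyclophilin that works in the same complex, 0.85, 0.96, 0.67 and 0.75 (0.047). Crtap, the third part of that complex, had 0.26, 0.25, 0.28 and 0.39 and did not pass (0.153). Serpinh1, the collagen chaperone, had -0.20, -0.53, -0.42 and -0.20 (0.221). The limma calls of genes on these lists lay close to the limit and were not followed with pools, arrays or settings changed. Without any 1 of the TSA pools, 0.0404 to 0.0674% of all probes passed for the TSA pools, against 3.53% with all pools.

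Of 15 genes of the plasminogen system, cathepsins and inhibitors, 2 rose in limma and 0 fell, against 2.74% and 0.795% of all probes. The median log2 folds of this list were 0.287, 0.384, 0.334 and 0.354 by time. Cst3, which encodes the cathepsin inhibitor cystatin C, had log2 folds of 0.67, 0.59, 0.66 and 0.75 (limma adjusted p = 0.047), and Serpinf2, the plasmin inhibitor, 0.68, 0.74, 0.85 and 0.57 (0.048). The control intensity of Serpinf2, 0.175, was below the brightness limit. Of 30 other matrix proteins compared, 0 passed in limma, 2 were higher and 4 lower at an unadjusted p under 0.05, and the medians were 0.0784, 0.00717, -0.0655 and 0.22. Vtn, which encodes vitronectin of blood plasma and is made in liver, was the 1 member of that list past 2-fold, with a log2 fold of 3.19 at 5 h, the time at which the liver list had a median of 3.37. Of 14 ADAM family genes compared, 0 passed in limma. At an unadjusted p under 0.05, 1 was higher and 3 lower (28.3% of all probes were under it). The medians of the ADAM family were -0.216, 0.00479, 0.00789 and 0.147. Adam10 met the size rule as lower at 5 h (-1.69) and 10 h (-2.18), where its probe, at 0.141 and 0.0999, was below the brightness limit, and its other probe was too dim to be compared. Of 14 adhesion partners of integrins 0 passed as well, with 1 higher and 3 lower at an unadjusted p under 0.05, and medians of -0.0095, 0.0108, -0.0981 and 0.123.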

How the data were processed

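Per the labels, RNA from the testes of 3 mice made up each pool, and technical duplicates of it went on CodeLink 1-channel arrays (Cy5). The deposited values are normalised intensities on a linear scale. Sorted values were identical on all 10 arrays, so the authors' values had been made equal in distribution across arrays. Of the scanner, background correction and normalisation program, none is named in the sources used. The table lacked values for 115 of 10012 probes. Symbols came from the platform annotation.

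A floor was set at the 5th percentile (0.0364), log2 was taken of the deposited intensities, arrays were shifted to a common median, and the lowest 25% of probes by mean log2 value (intensity below 0.2068) were left out, which kept 7422 of 9897. A log2 fold is the mean of a TSA pool minus that of the control pool, and its error (SE) comes from the duplicate arrays. The 5 pool means were compared with limma (version 3.58.1, R version 4.3.3; 3 residual degrees of freedom, two-sided, Benjamini-Hochberg over all compared probes, adjusted p under 0.05), as TSA pools against control and as a slope per hour in which the control counted as 0 h. The methods were tested on simulated data. Python 3.11.15 with matplotlib 3.10.9 drew the figures.

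Array numbers did not pair arrays across pools: in 10 pairs of pools, the correlation of deviations from the pool mean ran from -0.187 to 0.14. Members were named where they met the size rule, passed a limma test, were among the 3 brightest probes of their role, or stood on a list of well-known matrix genes. Others that are named were picked after their values were seen, or to show members of a role that did not pass. The members, roles, marker lists and matrix lists were chosen with earlier results of these data known. Alternatives were other floors, offsets, scalings, brightness limits, fold limits and limma settings, and each array and pool left out. Marker lists that are not described with a result were Sertoli, blood and epididymis, of which 11, 5 and 2 genes were compared. Of these, 1 Sertoli gene met the size rule, at 5 h (Trf, which is on the liver list too), and 1 epididymis gene passed limma. Median log2 folds at 2.5, 5, 7.5 and 10 h were 0.0796, 0.123, 0.0245 and 0.0371 for Sertoli, -0.0838, -0.0191, 0.124 and -0.0117 for blood, and 0.292, 0.307, 0.34 and 0.4 for epididymis.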

Additional observations from a re-analysis of the deposited data

Results flagged for a closer look

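Among the 53 members that were compared, 15 had both arrays above both control arrays at 1 time and both below at another (28.3%, against 14.3% of all probes). The difference between their extreme log2 folds was not tested, and the 4 comparisons share the control arrays. Of the fibrillar and beaded-filament collagen genes, it was 1.18 for Col5a2 (0.62 at 2.5 h and -0.56 at 7.5 h), 1.00 for Col6a1 (0.55 at 2.5 h and -0.45 at 7.5 h), 0.877 for Col1a1 (0.64 at 2.5 h and -0.23 at 5 h) and 0.61 for Col1a2 (0.20 at 2.5 h and -0.41 at 5 h). All 4 had their highest fold at 2.5 h. Of the basement membrane genes, it was 0.719 for Lama1 (0.31 at 10 h and -0.41 at 7.5 h), 0.609 for Col18a1 (0.45 at 5 h and -0.16 at 7.5 h), 0.509 for Col4a4 (0.32 at 10 h and -0.19 at 7.5 h), 0.278 for Col4a6 (0.09 at 10 h and -0.19 at 2.5 h) and 0.276 for Col15a1 (0.07 at 10 h and -0.20 at 5 h). It was 0.73 for Adamtsl2 (0.61 at 7.5 h and -0.12 at 5 h), 0.52 for Fbln1 (0.09 at 2.5 h and -0.43 at 7.5 h), 0.403 for Fbln5 (0.26 at 2.5 h and -0.15 at 5 h) and 0.397 for Timp3 (0.36 at 2.5 h and -0.04 at 5 h). The integrin subunit gene Itgax had 0.374 (0.16 at 10 h and -0.22 at 5 h) and Itgb1bp1, whose product binds an integrin tail, 0.224 (0.05 at 5 h and -0.17 at 2.5 h). Among the genes given here, Col4a4 was below the brightness limit at 7.5 h (0.184).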

How the results depend on the processing

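Members past the size rule numbered 3, 1, 2 and 5 at 2.5, 5, 7.5 and 10 h. A 1.5-fold rule gave 9, 9, 12 and 15 (7.57, 9.84, 11.8 and 16.5% of all probes), and a 3-fold rule 1, 0, 0 and 1 (0.162, 0.566, 0.216 and 0.391%). With an offset of 0.25 before the logarithm the counts at 5 and 10 h were 0 and 3. With no brightness limit those at 5 and 7.5 h were 3 and 7, since dim probes entered. Leaving out arrays moved the counts at all 4 times. In some of those settings Fbn2 met the rule as lower at 5 or 10 h, and Fbln7 as lower at 2.5 h. Over the alternatives the log2 fold of Fbn2 at 10 h lay between -1.06 and -0.69. In limma 4 members passed in the TSA pools against the control and 1 in the slope. The first count was 1 with each array centred within bins of probe ID number (0.175% of all probes), 0 with no brightness limit (0.0101%), 8 with the lowest 50% left out (11.6%), 9 with eBayes trend and robust (10.7%), and 8 with the pool as a random block of the 10 arrays (14.1%). With a replicate block added to the random block it was 7 (11.3%). It was 0 without the 2.5, 5, 7.5 or 10 h pool (0.0404 to 0.0674% of all probes). Leaving out arrays gave between 0 and 8. The slope count was 0 with centring by ID number, with no brightness limit and without any of the 5 pools, 4 with eBayes trend and robust (3.89%), 7 with the random block (9.69%), 8 with the replicate block added (8.22%), and 0 to 2 when arrays were left out. Causes were not tested. Over these alternatives the log2 change of Col16a1 stayed between 1.17 and 1.36 (limma adjusted p from 0.00118 to 0.125, not passing in 9 of 25), that of Col9a2 between 0.69 and 0.99 (not passing in 11 of 24), that of Lamb2 between 0.76 and 1.05 (13 of 25) and that of Timp2 between 0.50 and 0.63 (14 of 25). The slope of Ncan stayed between 0.11 and 0.18 and did not pass in 13 of 26. No named value that was called changed sign. Dim probes, which include most integrin subunits and MMPs, limit what can be said of those families.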
